A study of Mus musculus with 12 samples.

Results

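Genes of the PYHIN family were followed in bone marrow-derived macrophages (BMDM) of wild type (wt) and Treml4-/- mice, in the unstimulated state and after lipopolysaccharide (LPS). The members were the 9 rows of the deposited table named Pydc3, Pydc4, Pyhin1, Ifi203, Ifi204, Ifi205, Mnda, Mndal and Aim2, out of 43280 rows in all. They were picked by symbol, as the interferon-inducible cluster on chromosome 1, after Pydc3 had been seen to differ between the genotypes. The difference of Pydc3 between genotypes is therefore described here without a test. The other 8 members were tested in that comparison.

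Marrow cells of the C57BL6 background were grown for several days with M-CSF, the growth factor of macrophages. The BMDM then received vehicle (PBS), called M0, or LPS at 100 ng/mL for 8 h (M1-8 h) or 12 h (M1-12 h). LPS is a cell wall component of Gram-negative bacteria that drives the inflammatory M1 state. Each of the 6 groups, 2 genotypes at 3 times, had 2 biological replicates, which gave 12 poly(A)-selected libraries. Treml4 encodes a receptor of the TREM family, and the labels name no cell-specific Cre driver for its deletion in the Treml4-/- line. The age and sex of the marrow donors, and whether wt mice were littermates, were not given in the sources used here.

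PYHIN proteins join a pyrin domain, which binds other pyrin domains, to one or more HIN domains, which bind DNA. Some members lack the HIN part. AIM2 is the best known of them: on binding DNA in the cytosol it recruits the adaptor ASC and caspase-1 into an inflammasome, which matures interleukin 1 beta and opens pores in the cell. Many of the genes are switched on by type I interferon, which macrophages release after LPS has engaged TLR4, through interferon-stimulated response elements (ISRE) that the factor ISGF3 and the IRF proteins bind.

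The libraries held between 48008751 and 58500792 reads on genes, and 1 read was worth 0.0171 to 0.0208 CPM, the reads of a gene scaled to the library total. All values below come from 2 libraries per group, so that the spread is known only roughly. Treml4 itself was at 3.95 to 13.2 CPM in the 6 wt libraries and at 0 reads in each of the 6 Treml4-/- libraries. A count of 0 allows up to 0.0625 CPM per library at the floor of 3 reads, counting error only. All 9 macrophage markers found in the table passed the filter on low values, with Lyz2 the most abundant. Their summed level at M0 was 22069 to 26697 CPM in wt and 19646 to 19896 CPM in Treml4-/- cells. At M1-8 h it was 10916 to 12156 CPM in wt and 9213 to 9877 CPM in Treml4-/- cells. At M1-12 h it was 9334 to 9974 CPM in wt and 8878 to 9108 CPM in Treml4-/- cells. The Treml4-/- sum was the lower one at each time, and its part in the results was not tested. Markers of other cells summed to 0.767 to 31.5 CPM for dendritic cells, 48.1 to 157.6 CPM for neutrophils, 0.204 to 6.48 CPM for B cells, and 0.794 to 5.89 CPM for T and NK cells. The mast cell and basophil list and the stromal list each stayed under 2.51 CPM, with Fcer1a at 0 in every library. The dendritic cell sum was under 1.33 CPM in each M0 library and above 15.9 CPM in each LPS library, so it moved with LPS, and its part in the results was not tested.

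In the GRCm38 assembly (mm10) the members lay together on chromosome 1, between 173350879 and 174031810, a span of 0.681 Mb. Current annotation gives several of them other symbols: Pydc3 is Ifi208, Pydc4 is Ifi213, Pyhin1 is Ifi209 and Mnda is Ifi211. Pydc3 occupied positions 173673675 to 173698395 on the plus strand. Its neighbours of this set were Pyhin1 at 173630917 to 173647928, also on the plus strand, and Ifi204 at 173747293 to 173766943 on the minus strand. Pydc4 lay at 173566283 to 173599274 on the minus strand, and Aim2, at the outer edge, at 173350879 to 173466040 on the plus strand. The remaining members, Mndal (173849126 to 173942491), Mnda (173896345 to 173913046), Ifi203 (173920407 to 173942672) and Ifi205 (174011998 to 174031810), were on the minus strand. All 9 were annotated as protein coding.

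The regions before the start sites are shown because nearly all members responded to LPS, and because Pydc3 and Pydc4 shared almost the same promoter in the reference assembly. The sequence of the mice used here was not examined, and a link between promoter and genotype difference was not tested. RefSeq windows of 300 bases (GRCm38.p6, 250 before to 50 after the start) were found for 8 of the 9 members, in 10 windows. There was no entry for Ifi204. The windows were searched on both strands for GAAANNGAAA, a pair of GAAA half-sites 2 bases apart that forms the core of an ISRE. The letters occurred in 3.44% of all 32851 promoter windows, and in at least one window of 6 of the 8 members. The 30 bases around the match, in 5′ to 3′ direction of the gene with the match in capitals, were as follows.
Pydc3, chr1:173673597-173673626, plus strand: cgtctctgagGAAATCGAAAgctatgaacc
Pydc4, chr1:173599326-173599355, minus strand: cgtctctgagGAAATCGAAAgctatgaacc
Ifi203, chr1:173942508-173942537, minus strand: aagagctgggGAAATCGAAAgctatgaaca
Mndal, chr1:173880204-173880233, minus strand: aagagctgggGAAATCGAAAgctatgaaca
Mnda, chr1:173913064-173913093, minus strand: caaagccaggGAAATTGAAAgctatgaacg
Ifi205, chr1:174031870-174031899, minus strand: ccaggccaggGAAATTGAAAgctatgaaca

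The matches of Pydc3, Pydc4, Ifi203 and Mndal read GAAATCGAAA, and those of Mnda and Ifi205 read GAAATTGAAA. The form GAAATCGAAA was present in 16 of the 32851 windows, or 0.0487%, and these included the PYHIN genes Gm4955 (Ifi206), AI607873 (Ifi207) and Ifi214 besides the 4 members. In 5 of the 6 members the match began between 35 and 73 bases before the start, and in Ifi205 it began 134 bases before. Ifi205 and a second window of Mndal each held 1 more match, on the opposite strand. The window of Aim2 and that of Pyhin1 held none. A second motif, TTCNNNGAA (a gamma-activated site, in 8.30% of all windows), did not occur in a window of any member. A match describes the letters, and binding was not measured.

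The promoter windows of Pydc3 and Pydc4 were alike over nearly their whole length, with 282 identical positions in 285 aligned ones (98.95%). Against the window of Pyhin1, the alignment covered 192 positions and 66.7% were identical. Pydc3 and Pydc4 are printed whole, with Aim2, the member that responded least to LPS, for contrast. Capitals mark GAAANNGAAA.
Pydc3, chr1:173673415-173673714, plus strand: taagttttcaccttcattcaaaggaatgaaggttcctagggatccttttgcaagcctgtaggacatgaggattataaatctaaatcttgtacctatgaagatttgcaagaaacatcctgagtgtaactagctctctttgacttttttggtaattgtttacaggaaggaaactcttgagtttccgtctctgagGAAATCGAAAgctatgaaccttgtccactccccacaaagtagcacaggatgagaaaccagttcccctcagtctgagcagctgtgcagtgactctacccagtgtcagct
Pydc4, chr1:173599223-173599522, minus strand: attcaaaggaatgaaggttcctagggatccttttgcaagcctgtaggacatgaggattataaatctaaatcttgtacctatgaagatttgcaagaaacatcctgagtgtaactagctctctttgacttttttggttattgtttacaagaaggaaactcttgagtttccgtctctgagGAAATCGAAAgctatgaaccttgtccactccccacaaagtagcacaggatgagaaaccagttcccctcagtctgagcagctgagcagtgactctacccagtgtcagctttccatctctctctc
Aim2, chr1:173420354-173420653, plus strand: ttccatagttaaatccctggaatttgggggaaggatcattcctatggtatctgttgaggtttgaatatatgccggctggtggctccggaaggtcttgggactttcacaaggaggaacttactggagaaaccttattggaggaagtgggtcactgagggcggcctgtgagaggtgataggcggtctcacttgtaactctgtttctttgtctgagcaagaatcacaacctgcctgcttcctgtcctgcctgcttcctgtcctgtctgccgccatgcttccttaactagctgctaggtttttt

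Pydc3 is annotated as a pyrin-domain member of the family. At M0 it was almost silent in wt BMDM, at 0.0193 and 0.0787 CPM, which were 1 and 4 reads. The Treml4-/- libraries held 0.550 and 0.636 CPM, or 27 and 34 reads. At M1-8 h the wt level was 8.50 and 10.1 CPM, against 285.4 and 365.8 CPM in Treml4-/- cells. At M1-12 h wt cells had come down to 4.01 and 3.61 CPM, while Treml4-/- cells were at 307.2 and 301.2 CPM. The 2 genotypes did not overlap at any time. With 2 libraries per group, 28.8%, 51.9% and 43.1% of all genes did not overlap at M0, M1-8 h and M1-12 h. For Pydc3 no library of one genotype came near the other after LPS. RNA was measured in bulk, so a higher level cannot be told apart from a larger share of cells that express the gene.

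The ratio of Pydc3 reads between Treml4-/- and wt, corrected for library totals, was 12.2 at M0, 34.7 after 8 h of LPS and 79.7 after 12 h. The 95% counting intervals (exact, conditional on the sum of reads) were 4.96 to 39.0, 32.6 to 37.0 and 72.1 to 88.3. They cover counting error only and not the spread between cultures. On the scale of log2(CPM + 1) the differences, Treml4-/- minus wt, were 0.60, 4.98 and 5.99, each with a standard error of 0.13. The pseudocount of 1 compresses the difference at M0, where both genotypes were under 1 CPM.

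Pydc3 was higher after LPS in both genotypes. It was under 1 CPM in every M0 library and passed the filter on low values through its LPS libraries, so its LPS change is a description with no p. In wt cells the log2 change was 3.29 ± 0.13 (SE) at M1-8 h and 2.20 ± 0.13 at M1-12 h. In Treml4-/- cells it was 7.67 at M1-8 h and 7.58 at M1-12 h. From M1-8 h to M1-12 h the log2 change of Pydc3 was -1.10 ± 0.13 in wt cells and -0.09 ± 0.13 in Treml4-/- cells. These values are a description too, and whether the 2 changes differ was not tested. The difference of the LPS change between genotypes, a description only, was 4.38 at M1-8 h and 5.39 at M1-12 h. Its size depends on the pseudocount, because wt cells at M0 held 5 reads in all. By the ratios of mean CPM, the rise to M1-8 h was 190.0-fold in wt and 549-fold in Treml4-/- cells, and the rise to M1-12 h was 77.8-fold and 513-fold.

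Pydc3 made up 0.262% and 0.264% of the reads on the 9 members in wt cells at M1-8 h, and 5.94% and 7.78% in Treml4-/- cells. At M1-12 h the share was 0.125% and 0.132% in wt and 9.29% and 10.2% in Treml4-/- libraries. The family total at M0 was 104.8 and 91.2 CPM in wt and 107.1 and 122.0 CPM in Treml4-/- cells. At M1-8 h it was 3218 and 3865 CPM in wt and 3668 and 6158 CPM in Treml4-/- cells. At M1-12 h it was 2890 and 3032 CPM in wt and 2953 and 3307 CPM in Treml4-/- cells. These totals overlapped between the genotypes after LPS but not at M0, where 28.8% of all genes did not overlap.

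**Figure D1:**
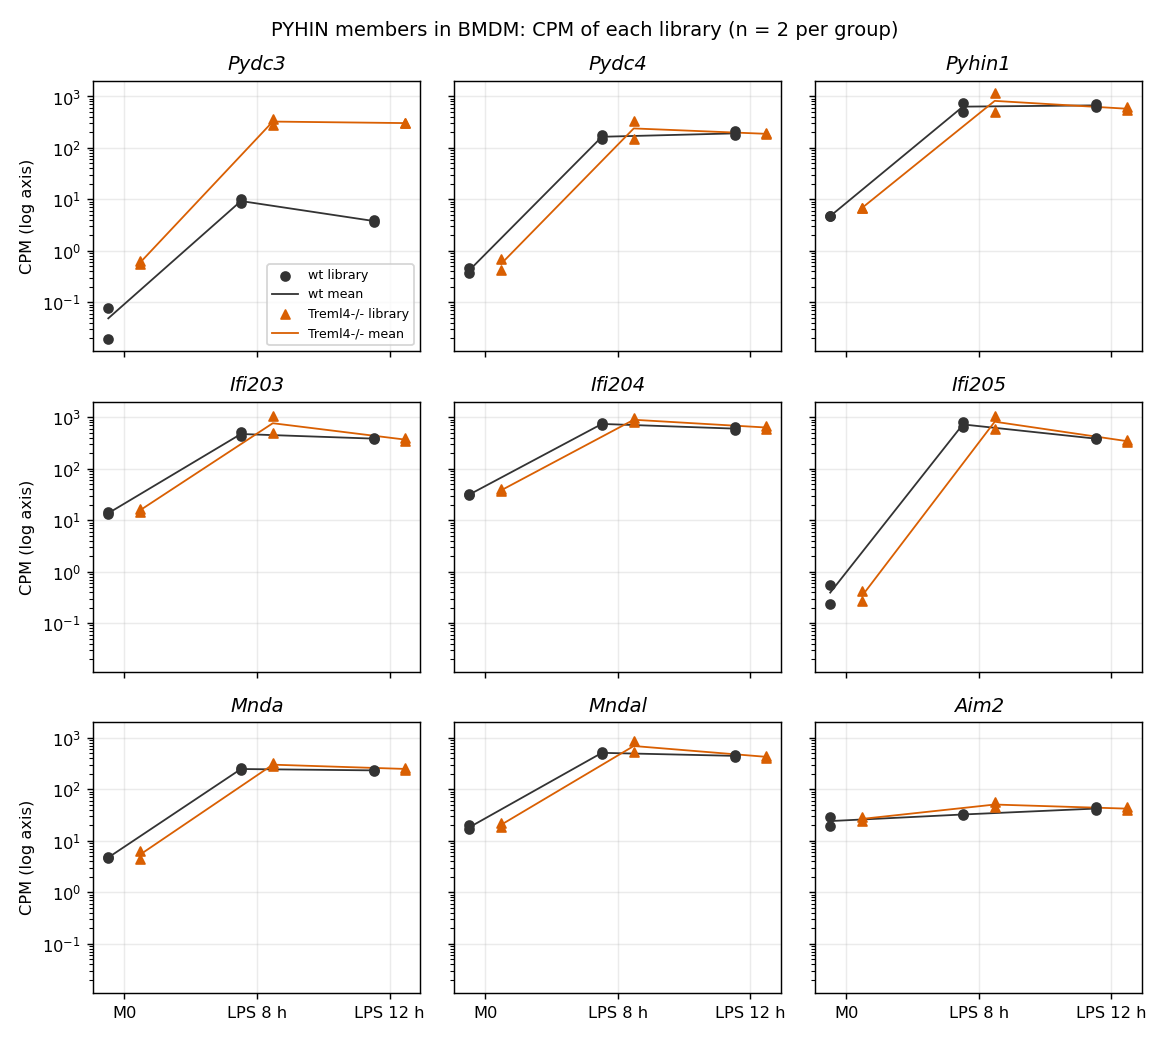
CPM of each PYHIN member on a log axis at M0, LPS 8 h and LPS 12 h, with 1 point per library (n = 2 per group), wt as circles and Treml4-/- as triangles, and lines through the group means. Pydc3 was at 8.50 and 10.1 CPM in wt and at 285.4 and 365.8 CPM in Treml4-/- cells at LPS 8 h, while the panels of the other members lie close together.

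Pydc4, the member with the promoter most like that of Pydc3, was also nearly off at M0, at 0.366 and 0.472 CPM in wt and 0.428 and 0.692 CPM in Treml4-/- cells. At M1-8 h it reached 148 and 182 CPM in wt and 151 and 328 CPM in Treml4-/- cells. At M1-12 h the libraries held 175 and 209 CPM in wt and 193 and 183 CPM in Treml4-/- cells. The genotypes overlapped at all 3 times. The rise at M1-8 h over M0, taken as the mean of both genotypes, was 7.02 ± 0.19 on the log2 scale. Like Pydc3, Pydc4 passed the filter on low values through its LPS libraries, and this change is a description.

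Gm4955 (Ifi206), a further family gene inside the cluster that is not among the 9, also had a near-copy of the Pydc3 window (98.94% of 282 aligned positions). It went from 0.688 to 0.906 CPM at M0 to 363 to 440 CPM at M1-8 h, over both genotypes, and so passed the filter through its LPS libraries. The log2 difference between the genotypes was 0.03 ± 0.12 at M1-8 h, with an adjusted p = 0.917 (limma), and -0.15 ± 0.12 at M1-12 h (adjusted p = 0.843).

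Reads can be shared between genes this alike. Of the distinct windows of 126 bases, the read length, in the GENCODE M21 transcripts of Pydc3, 3.32% also occurred in another gene, namely Gm4955 (111 windows) and Pydc4 (63 windows). For Pydc4 the share was 1.26%, and for Aim2 it was 0%. It was 1.70% for Ifi203, 3.19% for Mndal, 8.50% for Ifi204, 12.7% for Pyhin1 and 13.8% for Ifi205. Mnda stood apart with 51.5%, of which 576 windows were shared with Ifi205 and 279 with Ifi204. The count of Mnda is therefore uncertain, since how reads with several matches were counted is not given in the sources used here.

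All 9 members were higher after LPS at both times. At M1-8 h, 9 of 9 were called higher than at M0 in the mean of both genotypes, where called means an adjusted p under 0.05 (limma) and a change of at least 1.4-fold. Over all 12086 genes tested, 17.1% were called higher and 59.8% lower. The median log2 change was 5.48 for the members and -0.72 for all genes. At M1-12 h it was again 9 of 9, with 16.3% of all genes called higher, and medians of 4.89 and -0.76. Scaling by the median of ratios brought the median of all genes at M1-8 h to -0.04 and that of the members to 5.98, and moved the change of single members up by 0.34 to 0.78 at M1-8 h and by 0.37 to 0.83 at M1-12 h. With it, 3762 of the 12086 genes were called higher and 3792 lower at M1-8 h, and 3949 higher and 3943 lower at M1-12 h. The shares of all genes called thus depend on the scaling. Pydc3, Pydc4 and Ifi205 were under 1 CPM in every M0 library and so passed the filter of at least 1 CPM in 2 libraries through their LPS libraries, which means that they had to differ, and nothing is read from the counts and medians that hold them. The other 6 reached the filter at M0 already, 6 of 6 of these were called higher at both times, and their median changes were 5.04 and 4.51.

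Ifi205, an interferon-activated gene of the HIN-200 group, had the largest change of the 9 in the mean of both genotypes. It went from 0.231 and 0.551 CPM in wt at M0 to 649 and 800 CPM at M1-8 h. In Treml4-/- cells it went from 0.265 and 0.412 CPM to 577 and 1060 CPM. The log2 change was 9.11 ± 0.16 at M1-8 h, a description because of the filter, and by mean CPM the rise was 1853-fold in wt and 2420-fold in Treml4-/- cells. The 2 genotypes overlapped at M1-8 h. At M1-12 h Ifi205 had dropped in each genotype, to 381 and 387 CPM in wt and 361 and 323 CPM in Treml4-/- cells.

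Pyhin1 held 4.82 and 4.66 CPM in wt and 6.76 and 6.92 CPM in Treml4-/- cells at M0. At M1-8 h it was at 509.6 and 760.3 CPM in wt and at 491 and 1152 CPM in Treml4-/- cells. The wt libraries lay between the Treml4-/- ones at that time, and the rise was 6.67 ± 0.21 (log2, adjusted p = 8.74e-11).

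Ifi204, often set beside human IFI16, a sensor of DNA in nucleus and cytosol, was the most abundant member at M0, at 30.8 and 32.0 CPM in wt and 36.4 and 39.5 CPM in Treml4-/- cells. It reached 705 and 776 CPM in wt and 808 and 977 CPM in Treml4-/- cells at M1-8 h. The log2 change was 4.52 ± 0.08 (adjusted p = 9.76e-13).

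Ifi203 and Mndal are nuclear HIN-200 proteins of the family. Their annotated spans overlap by 22085 bases on the same strand, 37 of them exonic in both genes, and Mnda lies within the span of Mndal, so the split of reads between these genes is uncertain. Ifi203 rose from 14.3 and 13.002 CPM at M0 in wt to 438 and 505 CPM at M1-8 h. In Treml4-/- cells it rose from 14.6 and 16.6 CPM to 491 and 1038 CPM, and the mean log2 change was 5.22 ± 0.18 (adjusted p = 1.45e-10). These values set both M1-8 h groups far above both M0 groups, with a wide gap between the Treml4-/- replicates. Mndal moved from 16.7 to 22.1 CPM over the 4 M0 libraries to 487 to 855 CPM over the 4 M1-8 h libraries, a log2 change of 4.86 ± 0.13 (adjusted p = 1.75e-11). Mnda, with the reservation on its reads, moved from 4.48 to 6.36 CPM to 240 to 326 CPM, a log2 change of 5.51 ± 0.09 (adjusted p = 6.45e-13).

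Aim2, the inflammasome sensor, behaved unlike the rest in size. It was already at 29.4 and 19.1 CPM in wt and 24.6 and 28.8 CPM in Treml4-/- cells at M0. After 8 h of LPS it stood at 31.9 and 33.3 CPM in wt and 45.9 and 55.8 CPM in Treml4-/- cells. After 12 h it was at 39.8 and 45.1 CPM in wt and 45.3 and 39.3 CPM in Treml4-/- cells. The mean log2 change was 0.67 ± 0.13 at M1-8 h (adjusted p = 0.000335) and 0.73 ± 0.13 at M1-12 h (adjusted p = 0.000176), or 1.59-fold at M1-8 h. Scaled by the median of ratios, the change of Aim2 was 1.44 and 1.55. In wt cells alone the change at M1-8 h, 0.44, was below the 1.4-fold limit (adjusted p = 0.0367).

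**Figure D2:**
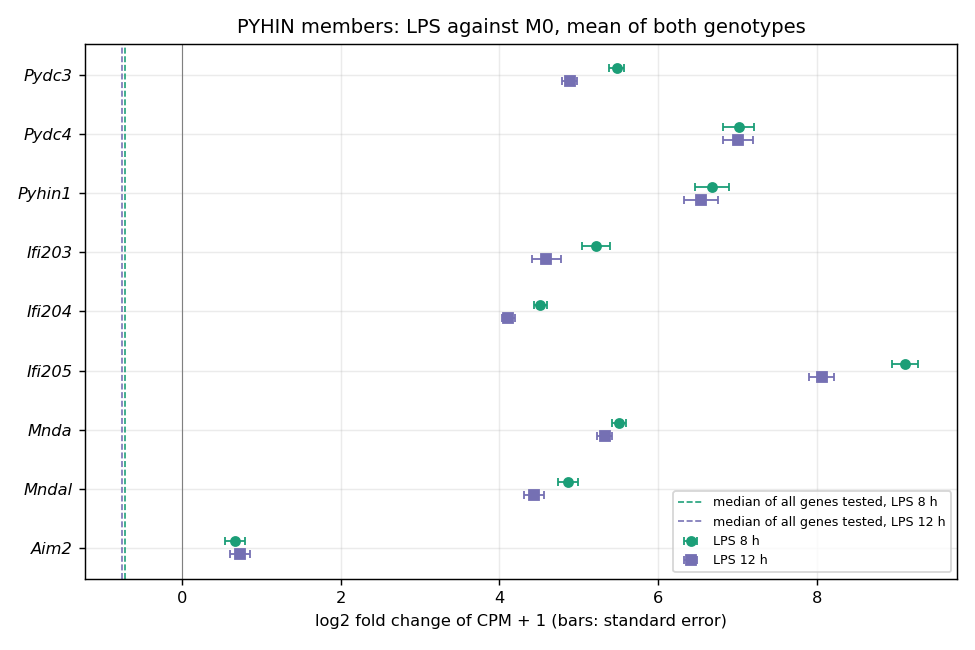
Log2 fold change of CPM + 1 against M0 for each member, mean of both genotypes, at LPS 8 h (circles) and LPS 12 h (squares), with standard errors; dashed lines give the medians of all genes tested. Ifi205 had the largest change of the 9 (9.11 and 8.06) and Aim2 the smallest (0.67 and 0.73), and all lie to the right of the dashed lines at -0.72 and -0.76.

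Between M1-8 h and M1-12 h, 3 of the 9 members were called lower and none higher in the mean of both genotypes, with 18.7% of all genes called lower and 13.5% higher. They were Ifi205, which fell by 1.05 ± 0.16 (log2, limma adjusted p = 0.000194), Ifi203, which fell by 0.63 ± 0.18 (adjusted p = 0.0103), and Pydc3, which fell by 0.59 ± 0.09. The mean for Pydc3 joins the fall in wt to the small change in Treml4-/- cells, and nothing is read from its call. The call of Ifi203 was lost, at -0.36, without the second Treml4-/- library at M1-8 h. Ifi204 (-0.40) and Mndal (-0.43) had adjusted p-values of 0.00133 and 0.0127 but changed by less than 1.4-fold. Pydc4 (-0.01), Pyhin1 (-0.14), Mnda (-0.18) and Aim2 (0.06) did not pass the test. Aim2 was the 1 member whose mean was higher at M1-12 h than at M1-8 h on this scale. By genotype, Aim2 was at 0.37 in wt and -0.26 in Treml4-/- cells. Pydc4 and Pyhin1 were also above 0 in wt (0.22 and 0.11) and below 0 in Treml4-/- cells (-0.24 and -0.38). Ifi203 was at -0.29 in wt, where it was not called, and at -0.96 in Treml4-/- cells.

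Per kilobase of exon (GENCODE M21, all exons of a gene joined), Ifi204 led at M0 with 8.82 ± 0.23 CPM per kb in wt and 10.7 ± 0.63 in Treml4-/- cells (mean ± SD, n = 2). Aim2 followed with 6.93 ± 2.09 in wt, a spread that overlapped with Ifi204 in wt and with Mndal (5.06 ± 0.64) by their means and SDs. Mnda (2.66), Ifi203 (2.04) and Pyhin1 (1.34) came next in wt, and Ifi205 (0.0936), Pydc4 (0.0613) and Pydc3 (0.00932) were lowest, with SDs of 0.0541, 0.0109 and 0.00799, of which Ifi205 and Pydc4 did not differ beyond their spread.

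At M1-8 h the order by CPM per kb in wt was Ifi204 (208), Pyhin1 (179), Ifi205 (174), Mndal (142), Mnda (139.5), Ifi203 (70.4), Pydc4 (24.1), Aim2 (9.30) and Pydc3 (1.77). The SDs of Ifi204, Pyhin1 and Ifi205 were 13.9, 49.97 and 25.6, so these 3 did not differ beyond their spread. Mndal and Mnda (SDs of 10.5 and 6.94) did not differ from each other, nor Mndal from Ifi205. Below them, Ifi203, Pydc4, Aim2 and Pydc3 were each apart from the next by more than their SDs of 7.04, 3.48, 0.29 and 0.218. Pydc3 was thus the lowest of the 9 per length in wt cells at each time. In Treml4-/- cells at M1-12 h Pydc3 was at 57.8 ± 0.81 CPM per kb, within the spread of Ifi203 (54.7 ± 5.01), and above Pydc4 (27.5 ± 1.02) and Aim2 (12.1 ± 1.23).

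**Figure D3:**
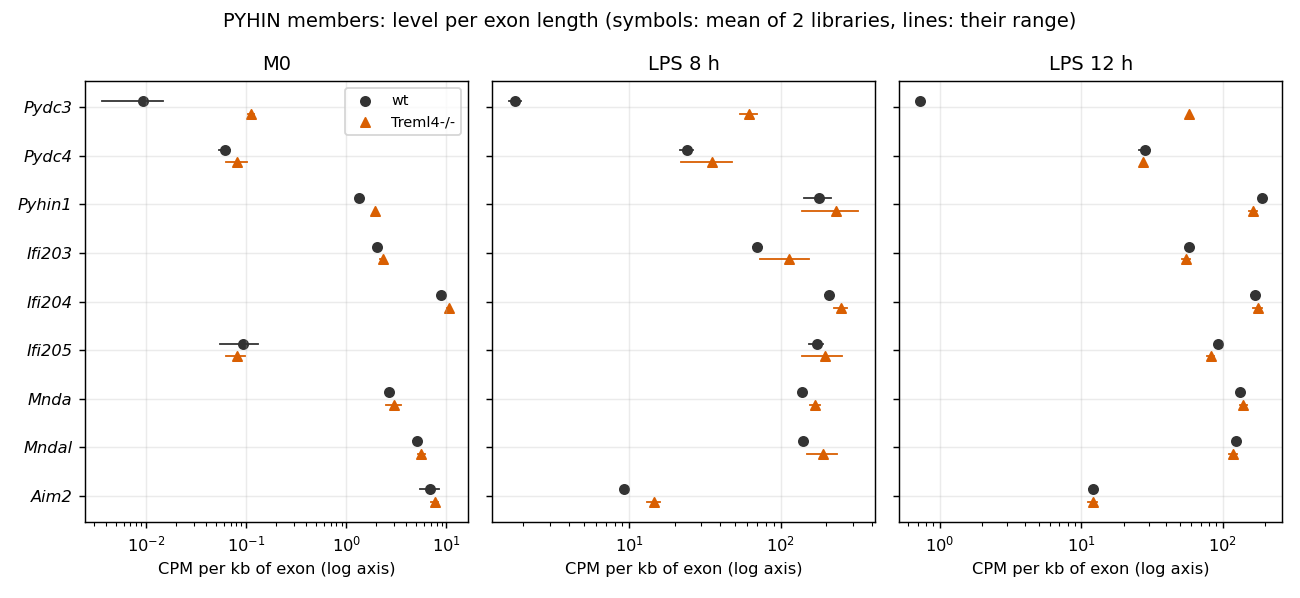
Level of each member in CPM per kb of exon (log axes, which differ between panels) at M0, LPS 8 h and LPS 12 h, as the mean of 2 libraries with a line for their range, wt as circles and Treml4-/- as triangles. Pydc3 moves from 0.725 CPM per kb in wt to 57.8 in Treml4-/- cells at LPS 12 h, and Aim2 passes from second place at M0 to among the lowest after LPS.

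None of the 8 members other than Pydc3 was called different between the genotypes at M0, M1-8 h or M1-12 h. At these times 0.0993%, 0.091% and 0.132% of all genes were called. A count of 0 is near that background, and nothing is read from it. At M0, 0 of 8 were called by limma, while 0.0993% of all genes were, and limma voom on the recovered reads also called 0. The log2 differences, Treml4-/- minus wt, ran from -0.05 (Ifi205) to 0.45 (Pyhin1), with a median of 0.16 against 0.03 for all genes. At an unadjusted p under 0.05 there was 1 of the 8, Ifi204 (0.26), beside 3.35% of all genes. The libraries of the genotypes did not overlap for Pyhin1, Ifi203 and Ifi204, that is 3 of 8, where 28.8% of all genes did not overlap. Pydc3 itself had a log2 difference of 0.60 at this time, with both groups under 1 CPM.

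At M1-8 h, 0 of 8 were called by limma, against 0.091% of all genes, and voom again called 0. Their differences were all above 0, from 0.12 (Ifi205) to 0.62 (Aim2), with a median of 0.34 against 0.07 for all genes. At an unadjusted p under 0.05 there were 4 of 8, namely Aim2, Ifi203, Ifi204 and Mndal, and 21.0% of all genes. Libraries did not overlap for Ifi204, Mnda and Aim2, again 3 of 8, where 51.9% of all genes did not overlap. The lowest adjusted p was 0.155, for Aim2, with a 95% interval of 0.23 to 1.01. For Pydc4 the interval of the log2 difference was -0.16 to 1.04, so differences of up to about that size are not excluded by these libraries.

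The 2 Treml4-/- libraries at M1-8 h differed for these genes, and with 2 libraries it cannot be told which is the unusual one. All 9 members were higher in the second than in the first, by 1.17-fold (Mnda) to 2.35-fold (Pyhin1), and Pydc4 and Ifi203 by 2.18-fold and 2.12-fold. The median log2 difference between the 2 libraries was 0.66 for the members, but -0.03 for all genes and 0.01 for 22 interferon-stimulated genes. In the wt libraries at M1-8 h all 9 were also higher in the second, with a median of 0.20. Without the second Treml4-/- library at M1-8 h the differences of the 8 members between genotypes ran from -0.34 to 0.48, with a median of 0.07, and 5 of 8 were above 0. Without the first Treml4-/- library at M1-8 h, the 8 differences ran from 0.39 to 1.14, and 4 of them (Pydc4, Pyhin1, Ifi203 and Mndal) were called, together with 598 genes in all. For Pydc3 the difference without the second library was 4.80.

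At M1-12 h, 0 of 8 were called by limma and by voom, with 0.132% of all genes called, and none had an unadjusted p under 0.05, compared with 7.55% of all genes. The differences ran from -0.22 (Pyhin1) to 0.09 (Mnda), with a median of -0.05. Libraries did not overlap for Pyhin1 and Ifi205, 2 of 8, where 43.1% of all genes did not overlap. Replicates were close at this time, and for Ifi204 the 95% interval was -0.18 to 0.32. For Pydc4 it was -0.62 to 0.57, while the difference of Pydc3 was 5.99.

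The change from M0 to LPS was compared between genotypes as well. For the 8 members other than Pydc3 the difference of the LPS change ran from -0.18 to 0.46 at M1-8 h and from -0.67 to -0.05 at M1-12 h. By limma and by voom 0 of 8 were called at either time, and 0 had an unadjusted p under 0.05. Over all genes limma called 0.00827% at each time, and voom called 0, while 6.67% and 3.82% had an unadjusted p under 0.05. The counts of 0 of 8 are near this background, and nothing is read from them. The gene that limma called was Pydc3, from which nothing is read, since the family was chosen for it. These comparisons share the M0 libraries with the ones above.

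**Figure D4:**
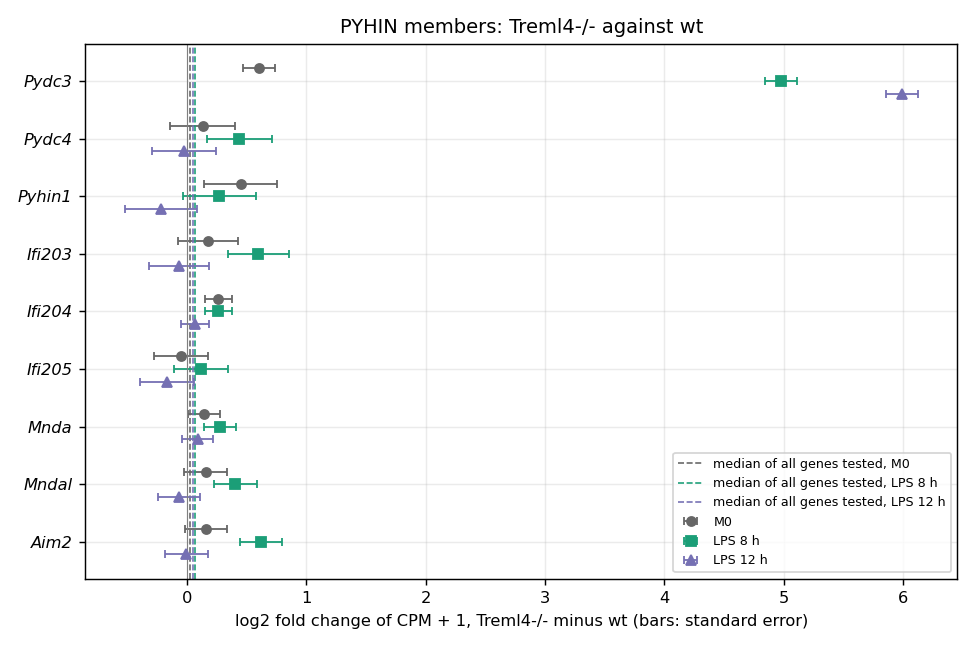
Log2 fold change of CPM + 1, Treml4-/- minus wt, of each member at M0 (circles), LPS 8 h (squares) and LPS 12 h (triangles), with standard errors; dashed lines give the medians of all genes tested. Pydc3 lies at 0.60, 4.98 and 5.99, and the other 8 members lie between -0.22 and 0.62.

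Other genes between the outermost members were looked at in the same way, and 3 further PYHIN genes there passed the filter. They were Gm4955, AI607873 (Ifi207) and the pseudogene Gm16340 (Ifi203-ps). AI607873 was the one with a high level at M0, at 186 to 206 CPM, and it rose to 554 to 736 CPM at M1-8 h, a log2 change of 1.65 ± 0.07 (limma adjusted p = 8.68e-10). Gm16340 went from 0.448 to 0.767 CPM to 16.6 to 59.7 CPM.

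None of these 3 genes was called between the genotypes at any time. Of all genes, 0.0993%, 0.091% and 0.132% were called at M0, M1-8 h and M1-12 h, so nothing is read from this count. At M1-8 h their log2 differences were 1.04 for Gm16340 (adjusted p = 0.172), 0.23 for AI607873 (adjusted p = 0.222) and 0.03 for Gm4955 (adjusted p = 0.917). The 2 Treml4-/- libraries of Gm16340 were at 20.8 and 59.7 CPM, and the 2 wt libraries at 16.7 and 16.6 CPM. A further family symbol, BC094916, which could not be matched to a position, went from 0.0984 to 0.150 CPM at M0 to 15.9 to 46.8 CPM at M1-8 h. Ifi202b held 0 reads in each M0 library and at most 0.258 CPM after LPS.

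The list of other PYHIN symbols had 4 of its 13 names in the table. The 3 that were tested (AI607873, Gm16340 and BC094916) were called higher at M1-8 h, as were 17.1% of all genes. Gm16340 and BC094916 were under 1 CPM in every M0 library and passed the filter through their LPS libraries, so nothing is read from this count. None of the 3 was called between genotypes, which is near the share of all genes called there, and nothing is read from it either.

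AIM2 and other sensors form inflammasomes with shared partners, and a list of 12 genes of these complexes was read, all tested. At M1-8 h 7 were called higher and 1 lower, beside 17.1% and 59.8% of all genes, with a median log2 change of 1.79 beside -0.72 for all genes. For this list and those below, the values of all genes come from scaling by library total. They depend on that scaling. Il1b, the cytokine that caspase-1 matures, rose by 7.41, and Casp4, the caspase that senses LPS in the cytosol and is named Casp11 in much of the mouse literature, rose by 3.86. Nek7, which helps NLRP3 assemble, fell by 0.91, and Nlrc4, a sensor of bacterial flagellin, was at -0.04 (limma adjusted p = 0.728). The direct partners of AIM2, named after their values were seen, are the adaptor ASC, encoded by Pycard, and caspase-1. Pycard was at 0.32 at M1-8 h, under the 1.4-fold limit, and fell by 1.26 at M1-12 h, when the median of all genes was -0.76. Casp1 rose by 2.06 at M1-8 h and by 2.30 at M1-12 h.

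Of 11 tested genes for sensing of DNA in the cytosol, 7 were called higher and 2 lower at M1-8 h, beside the same 17.1% and 59.8% of all genes, with a median of 1.21. Zbp1, a sensor of Z-form nucleic acids, rose by 5.68 and Irf7, which amplifies the interferon response, by 5.31. Irf3, the factor that starts it, fell by 0.96, and Ddx41, a helicase, fell by 0.84. Both falls stand beside the median of -0.72 for all genes.

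Interferon signalling genes, 14 in the list, counted 8 called higher and 1 called lower at M1-8 h, beside 17.1% and 59.8% of all genes, with a median of 1.96. The feedback inhibitors Socs1 (6.96) and Usp18 (6.72) rose most, Ifngr1, a chain of the interferon gamma receptor, fell by 3.26, and Ifnar2, a chain of the type I receptor, was at -0.18, under the 1.4-fold limit. All 22 interferon-stimulated genes were called higher at both times, where 17.1% and 16.3% of all genes were, with medians of 6.48 and 6.81. Cxcl10, a chemokine for T cells, rose by 9.20 and Gbp5, a guanylate-binding protein, by 8.94, whereas Bst2 (2.35) and Oas3 (1.91), both antiviral, rose least. Between genotypes 0 genes of these 4 lists were called by limma at M0, M1-8 h or M1-12 h. With 0.0993%, 0.091% and 0.132% of all genes called, a count of 0 in lists of this size is near the background, and nothing is read from it. At M1-8 h the median of the interferon-stimulated genes between genotypes was 0.13, and at M1-12 h it was -0.07.

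For each member the genes with the most similar profile were taken as the 3 non-members with the highest Pearson r of log2(CPM + 1) over the 12 libraries. These correlations are descriptions, and the points share libraries and the step from M0 to LPS. Pydc4 was most like Trim30d (r = 0.999), Ifit2 (0.999) and Iigp1 (0.999), and Ifi204 and Mnda were both most like Rtp4 (0.999 each). Ifi205 was nearest to Lmbrd1, Slamf7 and Cd69, with r from 0.998 to 0.999. Cd69 also fell between M1-8 h and M1-12 h, from 443 to 235 CPM in wt by group means. For Ifi203 and Mndal, Casp4 and Nt5c3 were in both sets of 3.

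Pydc3 had no partner so close. The 12 libraries include the genotype split for which Pydc3 was picked, so nothing is read from its lower r. Its nearest genes were Kitl (r = 0.917), the ligand of the receptor KIT, Plekha5 (0.916) and Gm4596 (0.909). Kitl was at 10.3 CPM in wt and 21.3 CPM in Treml4-/- cells at M1-8 h, by group means, a gap far smaller than that of Pydc3. Aim2, with its small change, was most like Chordc1, Cnot7 and Fem1c, each with r between 0.970 and 0.971.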

How the data were processed

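The authors aligned reads with STAR (mm10, per the labels), counted them on genes with Subread, and deposited log2 CPM, that is counts normalised to library size on the log2 scale. Annotation and strand setting of the counting are not given in the sources used here. The analysis had been planned for CPM, so the deposited log2 values were turned back into CPM; 100% of them gave whole reads within 0.001.

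A pseudocount of 1 was added before taking log2, which compresses changes of weakly expressed genes. Genes reaching 1 CPM in 2 libraries (12086) were fitted in limma 3.58.1, with a mean for each group, a variance trend and all libraries together. P-values were adjusted over all fitted genes by Benjamini-Hochberg, and a call needed less than 0.05 together with 1.4-fold. The test was first tried on simulated data.

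The members and all gene lists were chosen with earlier results of these data known. Genes named were the members, Treml4, other PYHIN symbols, tested genes in and around the cluster, the 2 highest and 2 lowest log2 changes at M1-8 h of each pathway list, and the 3 most similar genes per member; the values of Kitl and Cd69 were added after they were seen. Results for some genes under that rule are not reported here. Positions came from GENCODE M21 and promoters from RefSeq, aligned with Biopython 1.88. Alternatives were another pseudocount, filters, scaling, voom, no trend, no minimum fold change, only the libraries compared, replicate blocks and leaving out each library.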

Additional observations from a re-analysis of the deposited data

Results flagged for a closer look

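The LPS change of Pydc3 differed between the genotypes, by 4.38 after 8 h and 5.39 after 12 h on the log2(CPM + 1) scale, Treml4-/- minus wt. It was picked out because limma's term for this difference called it, whereas voom on the recovered reads called 0 genes. It is given as a description, because the family was chosen after this gene had been seen to differ. The Treml4-/- libraries lay above the wt ones at M1-8 h and at M1-12 h, where 51.9% and 43.1% of all genes did not overlap. The groups were too small for the test for a library far from the rest of its group, which was not run.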

How the results depend on the processing

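The 6 members that reached the filter at M0 were called higher after LPS at both times under every alternative. So were Pydc3, Pydc4 and Ifi205, but they passed the filter through their LPS libraries, and nothing is read from their calls. The difference of Pydc3 between genotypes at M1-8 h held (4.80 to 5.16). At M1-12 h the difference of Pydc3 ran from 5.93 to 6.32. At M0 it was 0.43 with median of ratios scaling, 2.24 with a pseudocount of 0.1 and 3.58 with voom on the recovered reads. With these 2 last settings its difference of the LPS change was 2.86 and 1.54 at 8 h and 4.04 and 2.74 at 12 h, and voom called 0 members there. At 12 h it was 5.53 with median of ratios scaling. The difference between genotypes at M1-12 h moved to 6.28 with the pseudocount of 0.1 and to 6.32 with voom. That pseudocount called 1 member between genotypes at M0, Pydc3, from which nothing is read, since the family was chosen for it. Without a minimum fold change 5 of the 9 members were called between M1-8 h and M1-12 h, beside 7291 of all 12086 genes. These shares are near each other, and nothing is read from the count.

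With median of ratios scaling Pydc4 was at 0.039 between M1-8 h and M1-12 h and Ifi205 at -0.013 between genotypes at M1-8 h. Each library was also left out in turn, where the lone sample left is assumed to vary like the other groups. The ranges of the log2 change were as follows. Between M1-8 h and M1-12 h, Pydc4 then ranged from -0.29 to 0.27, Pyhin1 from -0.44 to 0.17 and Aim2 from -0.013 to 0.13. Between genotypes at M1-8 h, Pydc4 ranged from -0.12 to 1.00, Pyhin1 from -0.34 to 0.89 and Ifi205 from -0.32 to 0.56. The cause of these shifts was not tested.

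Over all genes, the genotype counts moved most without the first wt library at M0, to 219 at M0, without the first wt library at M1-12 h, to 79, and without the first Treml4-/- library at M1-8 h, to 598. Without a filter they were 7 at M1-8 h and 7 at M1-12 h, with only the libraries compared 6 at M0 and 5 at M1-8 h, and with voom 10 at M1-12 h. For the difference of the LPS change they were 33 at 12 h without the first wt library at M0, 2 at 8 h without a filter, and 0 with voom.

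Whether replicate numbers pair the samples was checked by the correlation of deviations from group means, which was -0.264, 0.297 and 0.0563 between genotypes at M0, M1-8 h and M1-12 h. Between the times of one genotype (M0 and 8 h, M0 and 12 h, 8 h and 12 h) wt gave 0.125, 0.0625 and 0.406, while Treml4-/- gave 0.462, -0.199 and -0.272. The numbers were not taken as pairs. With the replicate number as a block, members called were 9 and 9 for LPS and 3 between the LPS times. Of all 12086 genes, 2070 and 1967 were called higher with LPS, and 2258 lower between the LPS times. All genes called between genotypes were then 12, 12 and 15. With each biological replicate of each genotype as a replicate block, members called were 9, 9 and 3, beside 2072 and 1967 of all genes called higher and 2264 called lower. The LPS counts hold Pydc3, Pydc4 and Ifi205, which passed the filter through their LPS libraries, and nothing is read from them. Counts of members between genotypes and for the interactions are left out, because they hold Pydc3, for which the family was chosen. Depth limits Pydc3 in wt at M0, with 1 and 4 reads.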
